A study of Mus musculus with 4 samples.

Results

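The genes described here are 31 mouse adhesion genes: 16 integrin alpha chains, 8 integrin beta chains, and 7 other adhesion molecules, namely Icam2, Vcam1, Selplg, Cd44, Spn, Pecam1 and Alcam. They were chosen by name, with earlier results of these data known. Their values were taken from the transcript clusters that the platform's gene table pairs with that symbol alone. All 31 were found, in 32 clusters (Itgad had 2), of 21789 clusters and 19938 genes with such a pairing. The 4 arrays came from CH12.F3, a mouse B lymphoma line that switches from IgM to IgA in culture, and form a group of 2 arrays of Mbd4 KO cells and a group of 2 arrays of control cells. Mbd4 encodes a repair enzyme with a methyl-CpG binding domain, which cuts out a thymine or uracil that faces guanine in DNA. Both groups received the same IgA-inducing mixture for 24 hours, made of IL-4 at 5 ng/ml, TGF-beta at 0.2 ng/ml and CD40 ligand at 25% of the volume, in medium with 6% fetal calf serum, and no array of resting cells was analysed here. The labels do not say how Mbd4 was disrupted, whether the knockout cells are 1 clone or several, or whether replicate arrays stand for separate cultures, so the p-values reflect a spread between replicate arrays that may be technical.

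Integrins are membrane receptors made of 1 alpha and 1 beta chain, and neither chain reaches the cell surface in quantity without a partner. The pairing is selective: the beta-1 chain accepts many alpha chains, the beta-2 chain only those of leukocytes, and the alpha-V chain several beta chains. On B cells the integrins LFA-1 (Itgal with Itgb2) and VLA-4 (Itga4 with Itgb1) bind ICAMs and VCAM-1, respectively, on follicular stromal cells. Integrins are switched on from inside the cell through Rap1 and talin. Selplg (PSGL-1), a selectin ligand, Cd44, a receptor for hyaluronan, and Spn (CD43) are long glycosylated proteins linked to the actin cortex.

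Mbd4 itself read 6.47 and 6.49 (log2) on the Mbd4 KO arrays, against 8.74 and 8.77 on the control arrays, so the arrays ranked as their labels say. The 8 measured B cell markers, of 9 listed, lay above the upper quartile of every array. Of 29 measured markers of T cells, myeloid cells, platelets, endothelial cells and fibroblasts, members left out, 22 did not lie above the median of every array, 7 did, and 1 of those, the T cell costimulatory receptor gene Cd28, lay above the upper quartile. A value above the median therefore did not by itself mark a gene in use. Array medians were 6.965 and 6.971 in the Mbd4 KO group and 6.944 and 6.978 in the control group, with lower quartiles of 5.632 to 5.645 and upper quartiles of 9.112 to 9.154 over the 4 arrays. Probes of different clusters differ in brightness, so a gene is placed here only against these quartiles and not against another gene.

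No integrin chain and no other adhesion gene of the 31 passed the test between Mbd4 KO cells and control cells. By limma with Benjamini-Hochberg adjustment over all clusters and a threshold of 0.05, 0 of the 32 member clusters were called, where 1.39% of all 21789 clusters were. At an unadjusted p under 0.05 there were 12, of which 8 were higher and 4 lower in Mbd4 KO cells, where 13.8% of all clusters passed that mark. The median difference over the 32 clusters was 0.00005 (log2, Mbd4 KO minus control), beside 0.0211 over all clusters, and the median size without its sign was 0.117, beside 0.0817. The differences ran between -0.71 and 0.28, and 22 of the 32 were at most 0.2 in size. Arrays of the groups did not overlap in 21 of the 32 clusters, 11 higher and 10 lower, beside 45.0% of all clusters. The 3 clusters with a difference of at least 0.5 in size, those of Itga6, Itgax and Pecam1, were all lower in Mbd4 KO cells and missed the threshold, with adjusted p of 0.0592 to 0.0688.

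**Figure D1:**
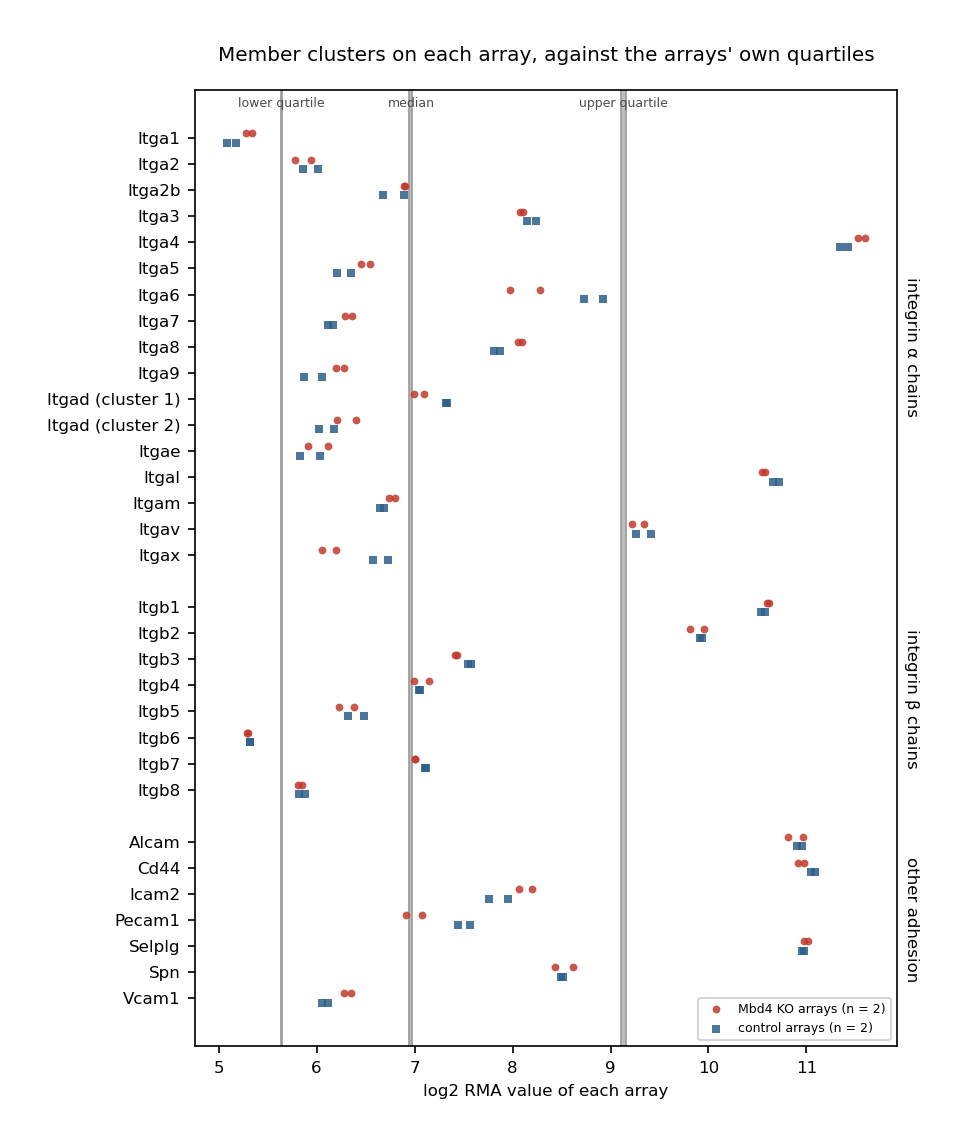
Log2 RMA values of the 32 member clusters (x axis) on the Mbd4 KO arrays (circles, n = 2) and the control arrays (squares, n = 2), each row a cluster, ordered by symbol within its role. Grey bands span the lower quartile, median and upper quartile of the 4 arrays; 8 genes lie right of the upper band on all 4 arrays, and in Itga6, Itgax and Pecam1 the circles lie clearly left of the squares.

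By level, 17 of the 31 genes lay above the array median on all 4 arrays, placed by the brighter cluster where there were 2, beside 51.3% of all clusters tested. Of these, 8 lay above the upper quartile on all 4, beside 27.4% of all clusters: the alpha chains Itga4, Itgal and Itgav, the beta chains Itgb1 and Itgb2, and Selplg, Cd44 and Alcam. A further 11 genes lay under the median on all 4 arrays, and the 2 genes Itga1 and Itgb6 under the lower quartile. Pecam1 alone lay on both sides of the median. The 17 genes comprise 7 of 16 alpha chains, 5 of 8 beta chains and 5 of 7 other adhesion molecules.

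The common beta chain Itgb1 had values of 10.60 and 10.61 in Mbd4 KO cells, against 10.58 and 10.53 in control cells. Its difference was 0.05 ± 0.066 (log2, SE), with a 95% interval of -0.11 to 0.21. Itga4, the alpha chain of VLA-4, had 11.52 and 11.60 in Mbd4 KO cells, against 11.42 and 11.35 in control cells. Both Mbd4 KO arrays were the higher ones for Itga4, but the difference of 0.18 ± 0.072 did not pass (limma adjusted p = 0.361; 95% interval 0.00042 to 0.35). Both chains of VLA-4 thus lay in the top of each array's values, between the 88.7th and the 94.9th percentile, and neither interval reached beyond 0.353 (log2) in size.

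The promoters of both VLA-4 chains can be set beside those of Itgam and Itgax, neighbouring genes on chromosome 7 that encode leukocyte alpha chains and lay under the array median. They are shown because Mbd4 binds CpG sites once these are methylated; no methylation was measured here. Each sequence is the RefSeq promoter table's window of 250 bases before to 50 after the annotated start (build GRCm38.p6), written 5′ to 3′ with every CG dinucleotide in capitals.
Itgb1, chr8:128685404-128685703, plus strand: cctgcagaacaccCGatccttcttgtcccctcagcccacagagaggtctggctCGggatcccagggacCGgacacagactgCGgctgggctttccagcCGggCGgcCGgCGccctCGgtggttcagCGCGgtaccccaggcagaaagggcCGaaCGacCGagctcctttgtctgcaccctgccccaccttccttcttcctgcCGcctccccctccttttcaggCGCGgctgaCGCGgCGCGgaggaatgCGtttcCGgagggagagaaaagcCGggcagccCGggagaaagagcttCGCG
Itga4, chr2:79255176-79255475, plus strand: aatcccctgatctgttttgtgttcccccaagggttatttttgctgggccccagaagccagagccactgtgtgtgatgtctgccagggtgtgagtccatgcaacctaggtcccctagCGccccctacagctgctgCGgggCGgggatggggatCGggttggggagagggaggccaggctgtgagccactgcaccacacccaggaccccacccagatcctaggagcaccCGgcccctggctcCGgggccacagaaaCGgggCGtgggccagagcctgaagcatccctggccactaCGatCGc
Itgam, chr7:128062390-128062689, plus strand: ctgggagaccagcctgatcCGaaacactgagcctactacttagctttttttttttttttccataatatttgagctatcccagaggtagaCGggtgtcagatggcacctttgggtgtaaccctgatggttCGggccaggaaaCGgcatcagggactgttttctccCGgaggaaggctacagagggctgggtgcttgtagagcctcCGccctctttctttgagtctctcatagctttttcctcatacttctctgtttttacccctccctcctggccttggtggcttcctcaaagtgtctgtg
Itgax, chr7:128129300-128129599, plus strand: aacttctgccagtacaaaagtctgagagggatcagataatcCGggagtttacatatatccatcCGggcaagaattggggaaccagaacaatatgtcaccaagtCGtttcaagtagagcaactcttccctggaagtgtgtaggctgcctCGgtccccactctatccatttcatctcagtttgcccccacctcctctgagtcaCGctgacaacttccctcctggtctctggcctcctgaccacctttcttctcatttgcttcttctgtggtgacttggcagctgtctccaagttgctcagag
The Itgb1 window holds 27 CG dinucleotides, a number that 15.5% of the 32851 windows in the table reach. The Itga4 window holds 10, which 43.5% of windows reach, the Itgam window 6 (56.4%) and the Itgax window 5 (62%). The table's median was 7. In all, 19 of the 31 genes had a window, and 12 were not in the table, among them Itgal, Itgb2, Itga6 and Pecam1. Taking the richest window of a gene, the 9 matched genes above the array median held 3 to 27 CG dinucleotides (median 23), and the other 10 held 5 to 20 (median 12). Of these 9, the genes under the table's median were Cd44 with 6, Itgb7 with 5 and Spn with 3. Of the other 10, they were Itga2b with 6, Itgam with 6 and Itgax with 5. That median counts every window of the table and not only the richest of each gene. These counts describe the windows and carry no test.

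LFA-1, the ICAM receptor of lymphocytes, also had both chains above the upper quartile of every array. Itgal had 10.55 and 10.58 in Mbd4 KO cells, against 10.66 and 10.72 in control cells. Both Mbd4 KO arrays were lower, by a difference of -0.13 ± 0.068 that did not pass (limma adjusted p = 0.48; 95% interval -0.30 to 0.04). Itgb2, the beta chain shared by all leukocyte integrins of this family, had 9.81 and 9.95 in Mbd4 KO cells, against 9.92 and 9.94 in control cells, and these overlapped (difference -0.04 ± 0.077; 95% interval -0.23 to 0.14). Of the other alpha chains that pair with Itgb2, Itgam and Itgax lay under the median of every array. Itgam, of the complement receptor CR3, read 6.80 and 6.74 in Mbd4 KO cells, against 6.65 and 6.69 in control cells. The table also pairs 3 further clusters with both Itgam and the ribosomal protein gene Rpl35, and these were not used.

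Itgax, which encodes CD11c, the alpha chain of CR4 known from dendritic cells and from some activated B cells, had the lowest adjusted p of the members. It read 6.20 and 6.06 in Mbd4 KO cells, against 6.58 and 6.72 in control cells. The Mbd4 KO arrays were both lower, by -0.52 ± 0.087 (log2, SE), 1.44-fold, with a limma adjusted p of 0.0592; 0.89% of all clusters had a difference as low or lower. All 4 values lay between the 33.4th and 46.2nd percentile of their arrays. Its neighbour Itgad had clusters that differed in sign. The brighter read 6.99 and 7.10 in Mbd4 KO cells, against 7.34 and 7.32 in control cells (difference -0.28, limma adjusted p = 0.173). The dimmer read 6.40 and 6.21 in Mbd4 KO cells, against 6.03 and 6.18 in control cells (0.20, adjusted p = 0.431), so no single direction can be given for Itgad. In the RefSeq order Itgam, Itgax and Itgad are adjacent, with 0 protein-coding genes between them, and their differences had both signs.

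Itga6, the laminin-binding alpha chain that pairs with Itgb1 or Itgb4, showed the largest difference of the members. It had 7.97 and 8.28 in Mbd4 KO cells, against 8.73 and 8.93 in control cells. Both Mbd4 KO arrays were below both control arrays, by -0.71 ± 0.12 (log2, SE), 1.63-fold, with a 95% interval of -1.01 to -0.40. The limma adjusted p was 0.0688, and 0.473% of all clusters had a difference as low or lower. Its spread within groups was also wide for these arrays, with an SD of 0.216 in Mbd4 KO cells and 0.139 in control cells beside medians over all clusters of 0.061 and 0.0585. Of the other laminin-binding alpha chains, Itga3 differed by -0.10 (95% interval -0.28 to 0.07) and Itga7 by 0.18 (0.01 to 0.35), and neither passed.

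The vitronectin and TGF-beta-activating integrins are built on Itgav, the alpha-V chain. It had 9.22 and 9.35 in Mbd4 KO cells, against 9.26 and 9.42 in control cells, just above the upper quartile of each array and with overlapping groups (difference -0.06, 95% interval -0.27 to 0.15). Of its beta partners, Itgb3 lay above the median, with 7.43 and 7.41 in Mbd4 KO cells, against 7.55 and 7.57 in control cells (difference -0.14, limma adjusted p = 0.427). Itgb5, Itgb6 and Itgb8, which complete the alpha-V integrins that bind vitronectin or release active TGF-beta from its latent form, stayed between 5.29 and 6.49 on all arrays. These 3 lay under the median and differed by -0.10, -0.03 and -0.02, none past the threshold. Of the gut-homing chains, Itgb7 read 7.006 and 7.002 in Mbd4 KO cells, against 7.106 and 7.12 in control cells, barely above the array medians (difference -0.11, adjusted p = 0.53). Its partner Itgae (CD103), a gene that TGF-beta induces in T cells, read 5.91 and 6.12 in Mbd4 KO cells, against 5.84 and 6.04 in control cells, and the groups overlapped. Itgb4, the partner of Itga6 in hemidesmosomes, read 7.15 and 6.99 in Mbd4 KO cells, against 7.06 and 7.04 in control cells.

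The 8 beta chains differed by at most 0.14 in size, with a median of -0.04. An unadjusted limma p under 0.05 was found in 0 of them, beside 13.8% of all clusters. Among the 17 alpha chain clusters the median was 0.10, beside 0.0211 over all clusters. Above zero were 10 of the 17, beside 12544 of all 21789 clusters. Of these 17, 9 had an unadjusted limma p under 0.05, 6 higher and 3 lower, and none passed after adjustment. The 6 higher ones were Itga1, Itga4, Itga5, Itga7, Itga8 and Itga9, by 0.18 to 0.27. Of these, Itga5, Itga7 and Itga9 lay under the median of every array and Itga1 under the lower quartile. The lower ones were Itga6, Itgax and the brighter Itgad cluster. Alpha and beta chains were not tested against each other. The platelet alpha chain Itga2b and the collagen-binding Itga2 overlapped between the groups, with differences of 0.11 and -0.07. Itga8, which binds nephronectin with Itgb1, had 8.10 and 8.05 in Mbd4 KO cells, against 7.81 and 7.88 in control cells (limma adjusted p = 0.226).

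**Figure D2:**
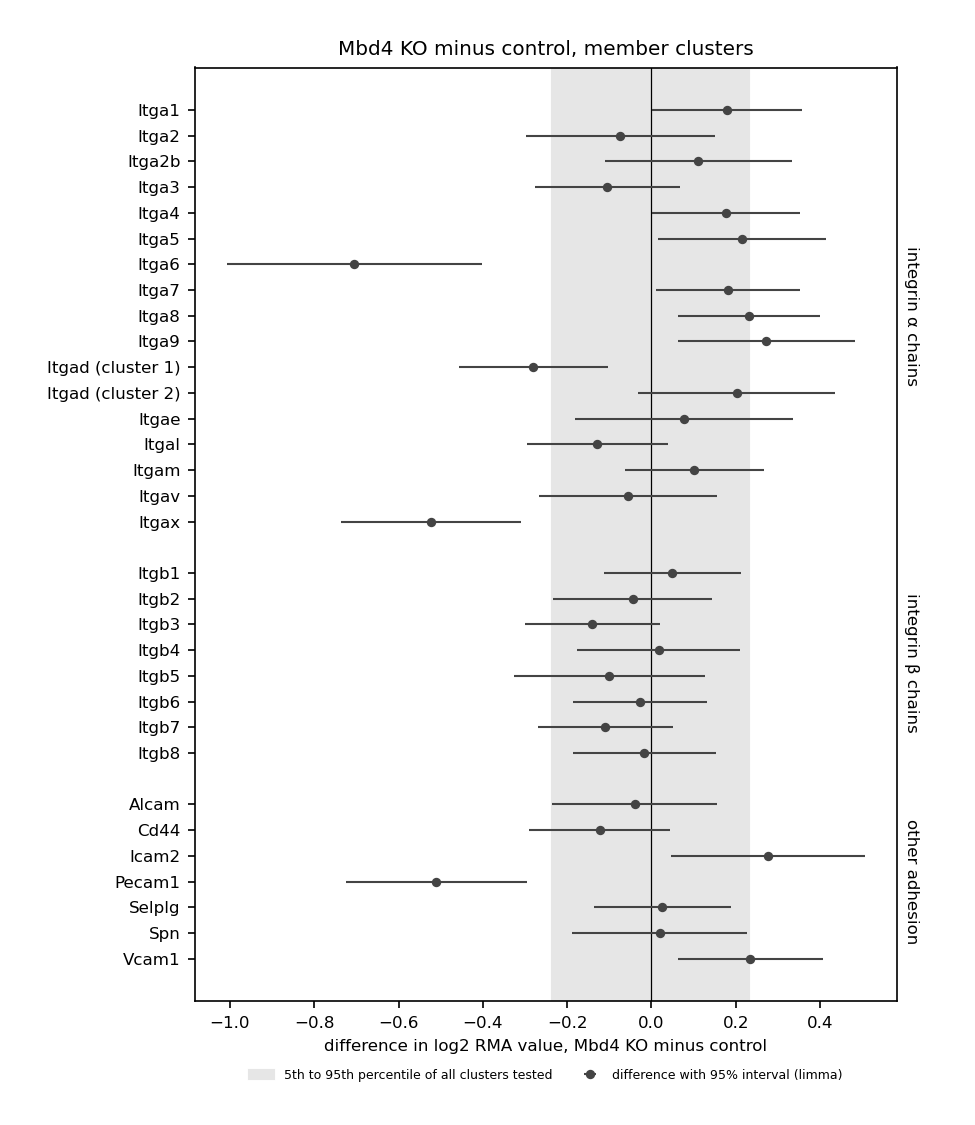
Difference in log2 RMA value, Mbd4 KO minus control (x axis), of each member cluster, with limma's 95% interval, in the row order of the plot of levels. The shaded band runs between the 5th and 95th percentile of all clusters tested (-0.235 to 0.232); 4 member clusters lie left of it and 3 right of it.

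The chains allow 22 of the known mouse integrin pairs to be judged, since both genes of each are members. In 10 of the 22 both chains lay above the array median on all 4 arrays, and in the other 12 only 1 chain did. With the upper quartile as the line, 3 pairs remained: Itga4 with Itgb1 (VLA-4), Itgal with Itgb2 (LFA-1) and Itgav with Itgb1. The 7 further pairs above the median were Itga3, Itga6 and Itga8 with Itgb1, Itgad with Itgb2, Itgav with Itgb3, Itga6 with Itgb4 and Itga4 with Itgb7. The median was passed narrowly by Itgad, Itgb4 and Itgb7, whose values reached only the 50.4th to 55.4th percentile. With quartiles taken over the clusters with 1 gene symbol, these 3 genes lay under the median on at least 1 array, which left 7 pairs, and Itgav lay below the upper quartile on at least 1 array, which left 2 pairs there. Pairs that lacked a chain above the median included Itga5 with Itgb1 (the fibronectin receptor), the collagen receptors of Itga1 and Itga2, Itgam and Itgax with Itgb2, Itga2b with Itgb3, and Itgae with Itgb7. Transcripts of both chains are a condition for a receptor and do not show one on the surface, and surface protein was not measured.

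**Figure D3:**
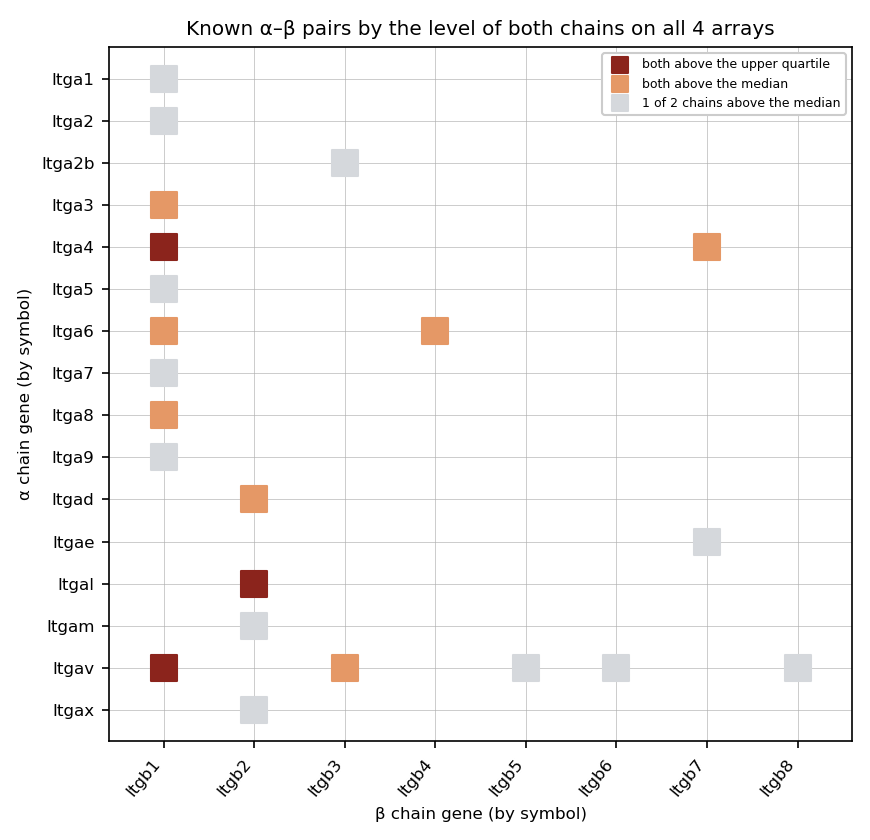
Known integrin pairs, with alpha chain genes on the y axis and beta chain genes on the x axis, each in the order of their symbols. Squares are coloured by whether both chains lay above the upper quartile on all 4 arrays (3 pairs), both above the median (7 further pairs) or only 1 chain above the median (12 pairs).

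Among the other adhesion molecules, Cd44, Selplg and Alcam lay above the upper quartile of every array. Cd44 had 10.91 and 10.97 in Mbd4 KO cells, against 11.08 and 11.05 in control cells (difference -0.12 ± 0.068; limma adjusted p = 0.5). Selplg had 10.98 and 11.01 in Mbd4 KO cells, against 10.98 and 10.96 in control cells (difference 0.03, 95% interval -0.14 to 0.19). Alcam (CD166), an immunoglobulin superfamily molecule that binds CD6 on T cells, had 10.81 and 10.97 in Mbd4 KO cells, against 10.90 and 10.96 in control cells, and the groups overlapped (difference -0.04, 95% interval -0.24 to 0.16). Alcam and Itgb5 are the 2 members on chromosome 16, where the median of 704 clusters was -0.141 and 40 clusters were called lower, against 1 higher. Spn, which encodes CD43, had 8.43 and 8.62 in Mbd4 KO cells, against 8.49 and 8.52 in control cells (difference 0.02).

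Pecam1 (CD31), an adhesion and inhibitory receptor of endothelial cells, platelets and leukocytes, read 6.91 and 7.07 in Mbd4 KO cells, against 7.44 and 7.56 in control cells. Both Mbd4 KO arrays were lower, by -0.51 ± 0.087 (log2, SE), 1.42-fold (limma adjusted p = 0.0647; 95% interval -0.72 to -0.30). The 5 other endothelial markers, summed on the linear scale, gave 409 and 417 in Mbd4 KO cells, against 385 and 394 in control cells. Of these 5, 0 were called, and only 1 lay above the median of every array. Such sums lean on the brightest genes of a list. The 6 other myeloid markers gave 650 and 676 in Mbd4 KO cells, against 692 and 739 in control cells, with 0 called. This sum was lower on both Mbd4 KO arrays and leaned on Fcgr3, an Fc receptor gene and the brightest of the 6. Fcgr3 read 8.13 and 8.12 in Mbd4 KO cells, against 8.36 and 8.46 in control cells (difference -0.28, limma adjusted p = 0.165). With Itgam counted, 5 of the 7 listed myeloid markers differed above zero and 2 below. Of the 6 without Itgam, the groups did not overlap in Fcgr3, nor in the lysozyme gene Lyz2, beside 45.0% of all clusters. Lyz2 was higher in Mbd4 KO cells (difference 0.24, limma adjusted p = 0.295). Both Fcgr3 and Lyz2 were picked after their values were seen. The 4 other platelet markers gave 346 and 326 in Mbd4 KO cells, against 326 and 362 in control cells. The 6 T cell markers gave 3011 and 2924 in Mbd4 KO cells, against 2712 and 2565 in control cells. Most of the T cell sum came from Cd28, the only 1 of the 6 above the median of every array. Cd28 read 11.35 and 11.30 in Mbd4 KO cells, against 11.17 and 11.08 in control cells (limma adjusted p = 0.3). Of the 6 T cell markers, 3 differed above zero and 3 below. The 8 fibroblast markers gave 852 and 829 in Mbd4 KO cells, against 853 and 865 in control cells. Of these 8, 5 differed above zero and 3 below, with 0 called. The lowest difference of the 8 was that of Pdgfrb (-0.52, limma adjusted p = 0.0783). Pdgfrb read 6.80 and 6.85 in Mbd4 KO cells, against 7.23 and 7.46 in control cells, and was picked after its values were seen. All arrays came from the cultured line CH12.F3, and any part of other cell types in the lower values of Pecam1 and Itgax was not tested. Within the line, fewer cells that hold a transcript and less of it per cell cannot be told apart in bulk RNA. Icam2, an LFA-1 ligand separated from Pecam1 by 2 protein-coding genes, ran the other way, with 8.20 and 8.06 in Mbd4 KO cells, against 7.95 and 7.76 in control cells (difference 0.28 ± 0.094, adjusted p = 0.28). Vcam1, the VLA-4 ligand, lay under the median with 6.29 and 6.35 in Mbd4 KO cells, against 6.12 and 6.05 in control cells (difference 0.23, adjusted p = 0.232).

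Whether Itga6, Itgax and Pecam1 passed changed with some settings and not with others. When the prior was allowed to follow intensity, limma called all 3 lower (adjusted p = 0.00232, 0.0158 and 0.0113), where it called 5.14% of all clusters, and without the dimmest 30% of clusters it did so too (0.0292, 0.0227 and 0.0257), where it called 4.20%. At an adjusted p of 0.1 these same 3 would pass, where 2.72% of all clusters would. In a fit blocked on the replicate number Itga6 passed (0.0329), where 0.730% of all clusters did, but neither Itgax (0.113) nor Pecam1 (0.0695) passed. A robust prior left all 3 uncalled (0.0735 for Itga6, 0.0627 for Itgax and 0.0691 for Pecam1), and so did the fit without moderation (0.464, 0.405 and 0.413). Fitting and adjusting over all clusters of the table, which changes the prior as well, also left them uncalled (0.259, 0.229 and 0.242). The same held for cyclic loess normalization (0.0566, 0.0503 and 0.0603) and quantile normalization (0.0611, 0.0557 and 0.0611). When 1 array was dropped, whichever it was, none of the 3 was called, in either direction, with adjusted p of 0.106 to 0.281 for Itga6, 0.163 to 0.263 for Itgax and 0.164 to 0.286 for Pecam1.

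Some genes that work with these receptors were called. Over 7 lists with 151 measured genes in 155 clusters, 1 cluster rose and 8 fell in Mbd4 KO cells. Over all clusters 0.431% were called higher and 0.955% lower. The lists were chosen with earlier results of these data known, so their share of calls cannot be read as a trait of such genes. The median difference over the 155 was 0.00434, beside 0.0211 over all clusters. Without either control array or either Mbd4 KO array these calls were lost, with adjusted p of 0.0498 to 0.24 without a control array and 0.0578 to 0.23 without a Mbd4 KO array; the exception was Lgals9, which kept its call (0.0498) without control array 1.

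Of 37 measured genes of integrin activation and linkage to actin, 1 rose and 1 fell. Rasgrp2 (CalDAG-GEFI), the calcium-driven activator of Rap1 that switches integrins on in platelets and leukocytes, read 7.44 and 7.58 in Mbd4 KO cells, against 8.28 and 8.32 in control cells. It fell by 0.79 (log2, SE 0.076; 1.73-fold; limma adjusted p = 0.0115). Vcl, which encodes vinculin and couples talin to actin, read 7.89 and 7.87 in Mbd4 KO cells, against 7.42 and 7.32 in control cells, and rose by 0.51 (SE 0.072; adjusted p = 0.0415). The median of the list was -0.05, and 28 of its 37 genes lay above the array median, 20 above the upper quartile.

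Among 35 measured integrin ligands and counter-receptors, 0 rose and 1 fell. It was Lrrc32 (GARP), which holds latent TGF-beta at the cell surface where alpha-V integrins can act on it. It read 8.36 and 8.29 in Mbd4 KO cells, against 8.76 and 8.79 in control cells, and fell by 0.45 (limma adjusted p = 0.0466). Mfge8, an alpha-V ligand, differed by 0.34 and did not pass (adjusted p = 0.0899). Named for its role after its values were seen, Icam1, the main LFA-1 ligand, read 10.36 and 10.34 in Mbd4 KO cells, against 10.29 and 10.29 in control cells, above the upper quartile of each array (difference 0.06, 95% interval -0.10 to 0.22).

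Of 20 measured selectins and enzymes that build selectin ligands, 0 rose and 2 fell, both of them enzymes. Gcnt1, the core 2 branching enzyme that prepares O-glycans of PSGL-1 for selectin binding, read 5.22 and 5.38 in Mbd4 KO cells, against 6.11 and 5.95 in control cells, a dim signal under the median of each array. It fell by 0.73 (SE 0.093; limma adjusted p = 0.0314). St3gal6, a sialyltransferase of the same pathway, read 10.55 and 10.54 in Mbd4 KO cells, against 11.08 and 11.07 in control cells, and fell by 0.53 (adjusted p = 0.0277). St3gal6 lies on chromosome 16, with the lower median given above; the part of the chromosome in this fall was not tested. Their substrate scaffold Selplg did not pass, as shown above.

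In the list of 19 tetraspanins and lateral integrin partners 0 genes rose and 2 fell. Cd36, a scavenger receptor that associates with integrins and tetraspanins, read 10.29 and 10.24 in Mbd4 KO cells, against 10.98 and 10.91 in control cells, and fell by 0.68 (limma adjusted p = 0.0144). Cd47, the integrin-associated protein, lies on chromosome 16 and had 2 clusters. One read 10.14 and 10.23 in Mbd4 KO cells, against 10.68 and 10.62 in control cells, and fell by 0.46 (adjusted p = 0.048), and the brighter differed by -0.36 without passing (adjusted p = 0.0987). Among 17 measured partners of CD44 and the sialomucins, 0 rose and 0 fell. At an unadjusted limma p under 0.05 there were 3 clusters, beside 13.8% of all clusters. The largest differences were those of the hyaluronan synthase genes Has3 (0.32) and Has2 (-0.23).

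Of 20 other adhesion molecules and partners, 0 rose and 2 fell. Lgals9, which encodes the sugar-binding protein galectin-9, read 9.13 and 9.20 in Mbd4 KO cells, against 9.96 and 10.03 in control cells. It fell by 0.83 (SE 0.071; 1.78-fold; limma adjusted p = 0.00785). Cdh17, a cadherin gene, read 8.40 and 8.50 in Mbd4 KO cells, against 8.99 and 9.08 in control cells, and fell by 0.58 (adjusted p = 0.0332). The 3 integrin chain genes outside the 31, Itga10, Itga11 and Itgb2l, had 0 calls. They had 1 unadjusted limma p under 0.05, beside 13.8% of all clusters. Itgb2l differed by 0.17 and Itga10 by 0.12.

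**Figure D4:**
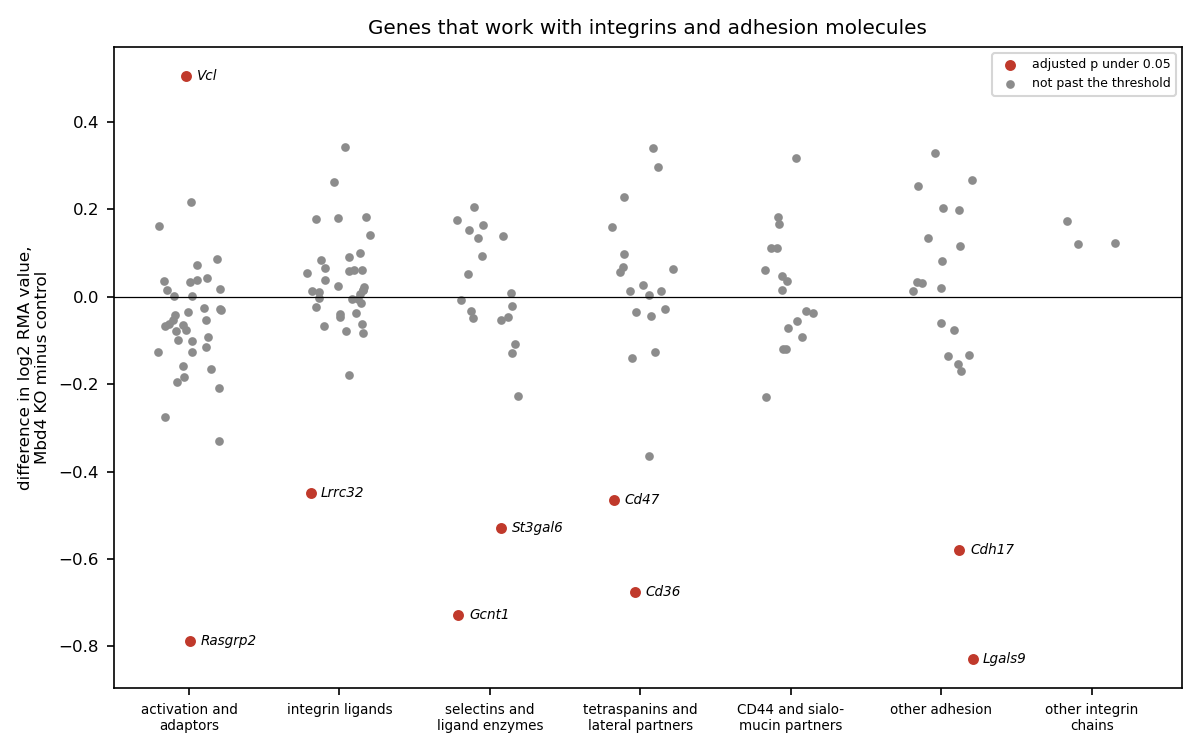
Difference in log2 RMA value, Mbd4 KO minus control (y axis), of the clusters in the 7 lists of genes that work with the adhesion receptors (x axis), with clusters spread sideways for legibility. Red points passed limma's adjusted p threshold of 0.05, 1 above zero and 8 below, and are named.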

How the data were processed

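Total RNA was extracted with Trizol, column-purified and labelled by Affymetrix's WT procedure, per the labels' protocols. The deposited log2 values, 1 per transcript cluster and array, are the authors' RMA output, per the submitters' processing notes. For the RMA version and options, the sources used here say nothing. Of 35556 clusters, 21789 had 1 gene symbol in the platform's gene table, 1621 had several and 12146 had none in the table used; only the first were tested. Their symbols for the 32 member clusters were current in RefSeq (GRCm38.p6).

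Groups came from the sample titles. Mbd4 KO was compared with control by limma 3.58.1 in R 4.3.3 (lmFit, eBayes without trend or robust prior; 2 residual and 4 prior degrees of freedom), as a two-sided test without a filter; p-values were adjusted by Benjamini-Hochberg across the 21789 clusters, with a threshold of 0.05. SE and 95% intervals are limma's moderated ones. With 2 arrays a group, exact permutation of 1 value has 3 splits and a smallest two-sided p of 0.333, so none was run. The number of arrays limits the precision, and the median SE was 0.0777. Between any 2 arrays at most 39 values were identical. A gene was placed by its brightest cluster against the quartiles of each array.

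All 31 members are reported, with Mbd4, and in each further list the genes past the threshold and the 2 largest differences. Icam1, Fcgr3, Lyz2, Cd28 and Pdgfrb were named outside this rule. The members and lists were chosen with earlier results of these data known. Alternatives were a replicate block, each array left out, other priors, no moderation, quantile and cyclic loess normalization, other sets of clusters, an adjusted p of 0.1 and, for levels, other quartiles. The limma step was tested on simulated data. Figures were drawn with matplotlib 3.10.9.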

Additional observations from a re-analysis of the deposited data

How the results depend on the processing

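Over all clusters the count of 302 calls moved to 159 with the replicate number as a block, 1121 with an intensity trend, 640 without the dimmest 30% of clusters, 593 at an adjusted p of 0.1, 22 over all clusters of the table and 0 without moderation (plain linear model per cluster, 2469 at an unadjusted p under 0.05), and lay between 65 and 75 with 1 array left out. Without moderation Mbd4 kept its difference of -2.28 but not its call (adjusted p = 0.153), and it was called in all other alternatives. For the member clusters the count of 0 became 1 with the replicate block, Itga6 (limma adjusted p = 0.0329, where 0.730% of all clusters were called), and 3 with the trend, without the dimmest clusters (27 of the 32 kept) and at an adjusted p of 0.1 (where 2.72% were called), each time Itga6, Itgax and Pecam1, all lower; it stayed at 0 in the other settings. The labels do not say that replicate numbers pair the arrays, and deviations of same-numbered arrays correlated at 0.0831 across clusters, from 2 pairs. Of the 9 pathway calls, 4 held with the replicate block (Lgals9, Rasgrp2, Cdh17 and Cd36), 6 with quantile normalization and 0 without moderation or over all clusters of the table. The count of 10 pairs above the median became 3 at the upper quartile, and 7 to 10 under the other settings. Signs turned for 8 members, all with differences of at most 0.0773 in size and none called. With 1 array left out their differences ran between -0.157 and 0.00924 for Itga2, -0.0254 and 0.18 for Itgae, -0.132 and 0.0203 for Itgav, -0.115 and 0.0259 for Itgb2, -0.0606 and 0.0947 for Itgb4, -0.0504 and 0.0165 for Itgb8, -0.0747 and 0.114 for Spn, and -0.117 and 0.0366 for Alcam. With cyclic loess normalization Itgb4 gave -0.00642. The cause of these shifts was not tested. The lone array of a group was assumed to vary like the other group. Signal over background was not available, so the size of a difference in members under the array median, such as Itgax, is uncertain.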
